A study of Mus musculus with 12 samples.

Results

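The complement genes described here are 9 genes of the innate immune cascade, found by their symbol in all 12 expression tables, 9 of 23183 symbols in all. They comprise 5 components (C1qa, C1qb, C1qc, C3 and C4b), 2 receptors (C3ar1 and C5ar1) and 2 regulators (Serping1 and Cd55). They were measured in bulk RNA of hippocampus and prefrontal cortex of 6 male mice of the inbred strain C57BL/6, kept free of specific pathogens. In 3 mice the abdomen had been exposed to X-rays (the library names give 13 Gy), which models long-lasting gut damage. The other 3 mice were not irradiated. Each mouse gave 1 library per region, so the groups are irradiated hippocampus, control hippocampus, irradiated prefrontal cortex and control prefrontal cortex, with 3 libraries each. The brains were taken in the chronic phase. The sources used here give no time after exposure, no age of the mice and no sham procedure for the controls.

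Complement is a cascade of secreted proteins that tags cells, debris and microbes for removal. C1q recognises a target and, with its proteases, cleaves C4 and C2. The resulting convertase cleaves C3, whose fragments mark the target and signal through receptors on myeloid cells. In the brain, C1q is made mostly by microglia, the resident macrophages. The sources of C3 and C4 include astrocytes and cells of the vessels, the meninges and the choroid plexus, the epithelium that secretes cerebrospinal fluid. C1q and C3 are known for marking synapses that microglia remove during development. Regulators keep the cascade from attacking the body's own cells.

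Values are FPKM, fragments relative to transcript length and to the mapped fragments of the library, which allow levels of different genes to be set side by side. Estimated depth was 15.6 to 18.9 M (mega) fragments per library, and 12640 to 12967 genes per library reached 1 FPKM. The hippocampal and cortical marker lists fitted the region labels. The summed level of 8 hippocampal markers was 274.3 to 311.9 FPKM in the hippocampal libraries, against 134.3 to 151.5 FPKM in the prefrontal ones. Cortical markers summed to 171.5 to 212.2 FPKM in the prefrontal libraries, against 55.23 to 72.05 FPKM in the hippocampal ones. Striatal markers, of a region that the labels do not name, were also higher in the prefrontal libraries. They summed to 750 to 969 FPKM there, against 66.3 to 115 FPKM in the hippocampal libraries. The part of striatal tissue in the prefrontal values was not tested. The amount of choroid plexus differed widely between hippocampal libraries, with a marker sum of 126.5 FPKM in irradiated hippocampus 2 and 3736 to 6651 FPKM in the 5 others. Differences between groups were tested with limma on log2(FPKM + 1), over genes whose mean reached 1 FPKM in the libraries compared, with Benjamini-Hochberg adjustment over all genes tested and a threshold of 0.05. In bulk tissue, a lower level from fewer cells of a type and a lower level from less RNA per cell cannot be told apart.

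In the hippocampus and in the prefrontal cortex, no complement gene of the 9 passed the test between irradiated and control mice. Between the regions, the components C3 and C4b and the membrane regulator Cd55 were higher in hippocampus than in prefrontal cortex, in irradiated and in control mice. Serping1 was higher in hippocampus than in prefrontal cortex in irradiated mice, and its difference did not pass in control mice. The test of that change itself, the hippocampal minus the prefrontal irradiation effect of Serping1, did not pass. Over all genes tested, 0.00% were called with irradiation in hippocampus and 0.00786% in prefrontal cortex, while 29.2% were called between the regions in irradiated mice and 30.3% in control mice. The 3 C1q chains lay between 36.6 and 58.9 FPKM in every library.

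**Figure D1:**
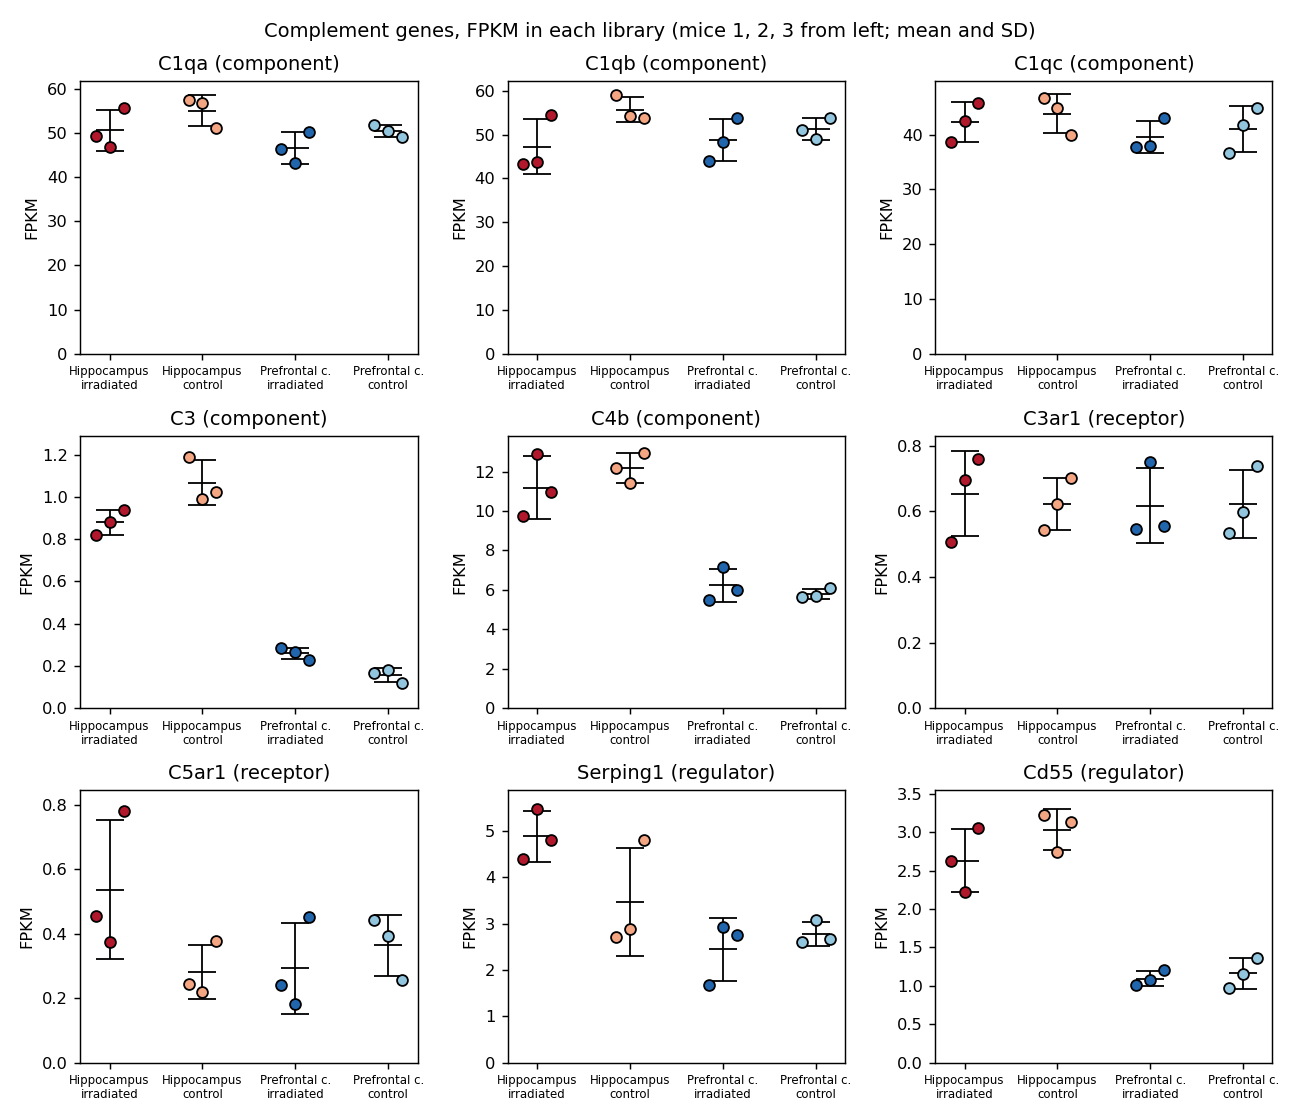
FPKM of the 9 complement genes in each library (points, mice 1, 2 and 3 from left; mean and SD as lines), by region and treatment, each panel with its own axis from 0. C3, C4b and Cd55 separate the hippocampal from the prefrontal libraries, while the C1q chains lie between 36.6 and 58.9 FPKM in every library.

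C1qa, C1qb and C1qc encode the chains of C1q, which are needed together to build the molecule that starts the classical pathway. In mm10 with GENCODE M21 the genes lie side by side on the minus strand of chromosome 4, C1qb at 136880129 to 136886187, C1qc at 136889804 to 136893065 and C1qa at 136895917 to 136898803. The gaps between them are 3616 and 2851 bases, and no other annotated gene lies in the stretch of 18675 bases. Promoter sequences from RefSeq (GRCm38.p6) were matched for 6 of the 9 genes, namely Cd55, C1qb, C1qc, C3ar1, C5ar1 and C3. C1qa, C4b and Serping1 were not matched. The sequences before C1qb (chr4:136886201-136886450, minus strand) and C1qc (chr4:136893066-136893164, minus strand) are shown because these are the C1q genes that were matched. Capitals mark the letters AGGAAGT, the core bound by ETS factors such as PU.1 of myeloid cells, here on the opposite strand and so read as ACTTCCT. The motifs were chosen with the genes' identity known.

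C1qb: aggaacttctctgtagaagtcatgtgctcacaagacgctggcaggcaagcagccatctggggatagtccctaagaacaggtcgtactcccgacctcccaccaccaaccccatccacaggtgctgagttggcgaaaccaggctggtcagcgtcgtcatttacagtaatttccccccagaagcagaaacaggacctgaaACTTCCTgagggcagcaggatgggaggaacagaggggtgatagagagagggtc

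C1qc: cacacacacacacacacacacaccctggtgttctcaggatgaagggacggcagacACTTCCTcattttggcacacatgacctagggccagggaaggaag

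The match begins 53 bases before the RefSeq start of C1qb. For C1qc the RefSeq start lies 151 bases inside the GENCODE gene, so the match begins 44 bases before the end of the printed stretch, where the GENCODE gene starts, and 195 bases before the RefSeq start. C5ar1, a receptor gene of myeloid cells, holds the same letters at 190 and at 72 bases before its RefSeq start, and both lie inside the GENCODE gene. On either strand, 7.69% of 32851 mouse promoter windows of 250 bases hold AGGAAGT, as do 3 of the 6 windows matched for the 9 genes. Such a match is a description of the letters and was not tested as a binding site.

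C1qa stood at 49.3, 46.8 and 55.8 FPKM in irradiated hippocampus, against 57.5, 56.9 and 51.1 FPKM in control hippocampus. In prefrontal cortex it stood at 46.4, 43.2 and 50.3 FPKM in irradiated mice, against 51.9, 50.6 and 49.2 FPKM in control mice. The groups overlap in both regions, since irradiated mouse 3 lies above control mouse 3. C1qa differed by a log2 value of -0.12 ± 0.08 (SE) in hippocampus (limma, adjusted p = 0.559) and by -0.12 ± 0.07 in prefrontal cortex (adjusted p = 0.799), with intervals of the hippocampal difference from -0.30 to 0.06.

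C1qb stood at 43.4, 43.8 and 54.4 FPKM in irradiated hippocampus, against 58.9, 54.3 and 53.7 FPKM in control hippocampus. Irradiated mice 1 and 2 lie below every control and irradiated mouse 3 lies among them. In prefrontal cortex C1qb stood at 44.1, 48.3 and 53.7 FPKM in irradiated mice, against 51.1, 48.9 and 53.8 FPKM in control mice, and these groups overlap. The hippocampal difference of C1qb was -0.24 ± 0.09 on the log2 scale, with an unadjusted p of 0.0303 and an adjusted p of 0.475 by limma, and that in prefrontal cortex was -0.08 ± 0.08. The effect in hippocampus minus that in prefrontal cortex was -0.16 and did not pass.

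C1qc stood at 38.6, 42.5 and 45.8 FPKM in irradiated hippocampus, against 46.7, 44.9 and 40.0 FPKM in control hippocampus. In prefrontal cortex it stood at 37.8, 37.9 and 43.0 FPKM in irradiated mice, against 36.6, 41.7 and 44.9 FPKM in control mice. The groups overlap in both regions, and the log2 difference was -0.05 ± 0.08 in hippocampus and -0.05 ± 0.09 in prefrontal cortex. The sign of this small value turns with the scaling: with each library scaled to an equal total it was 0.04 in hippocampus and 0.02 in prefrontal cortex, a scaling that moves the median of all genes to 0.07 in both regions.

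Relative to C1qa, the other chains varied over the libraries as well. The ratio of C1qb to C1qa ran from 0.88 to 1.12 over the 12 libraries and that of C1qc to C1qa from 0.706 to 0.913. The summed FPKM of the 3 chains was 131.3, 133.2 and 156.1 in irradiated hippocampus, against 163.1, 156.1 and 144.8 in control hippocampus. In prefrontal cortex the sum was 128.3, 129.3 and 147 in irradiated mice, against 139.6, 141.2 and 148 in control mice. The sum therefore overlapped between treatments in both regions.

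A list of 16 other microglia markers was set beside C1q. It summed to 282.7 to 308.7 FPKM in irradiated hippocampus, against 322.1 to 334.4 FPKM in control hippocampus, with no overlap. In prefrontal cortex it summed to 264.6 to 303.6 FPKM in irradiated mice, against 279.1 to 326.5 FPKM in control mice. In hippocampus 14 of the 16 markers had negative log2 differences, beside 53.0% of all genes. By limma 0 passed the adjusted test and 6 were lower at an unadjusted p under 0.05, beside 5.81% of all genes. Tmem119 and P2ry12, which define microglia in brain tissue, were present in all 12 libraries. C1q amounted to 43.5% to 50.6% of the marker sum over the 12 libraries, at 47.5 ± 2.92% in irradiated hippocampus and 47.1 ± 1.99% in control hippocampus (SD, n = 3 each). The part of microglia number in the C1q values was not tested.

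**Figure D2:**
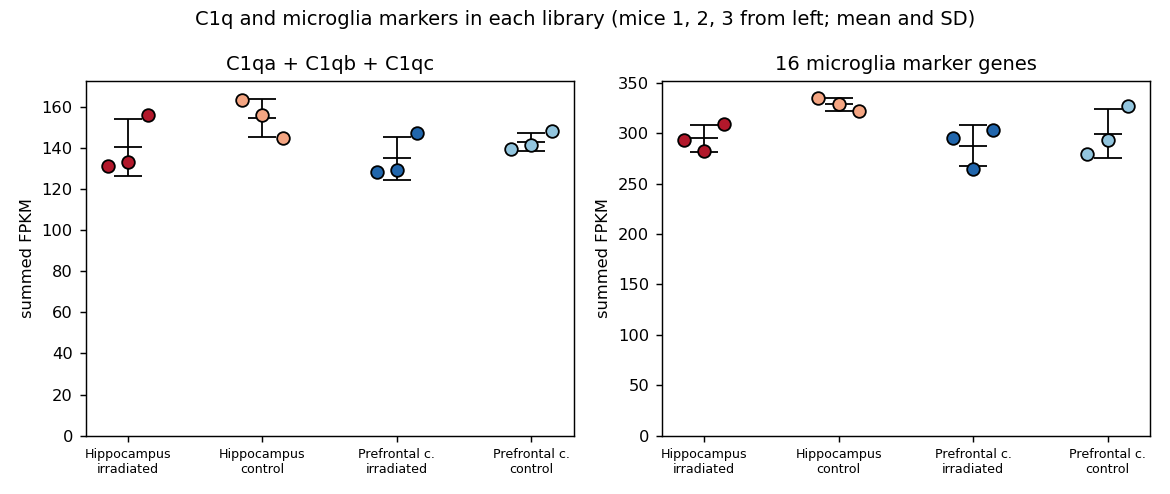
Summed FPKM of the 3 C1q chains (left) and of 16 microglia marker genes (right) in each library (points, mice 1, 2 and 3 from left; mean and SD as lines), by region and treatment. In hippocampus the marker sums of irradiated mice (282.7 to 308.7) lie below those of control mice (322.1 to 334.4), while the C1q sums overlap.

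C4b encodes complement C4, the substrate of the C1 proteases, and lies on the minus strand of chromosome 17 at 34728380 to 34743882. It stood at 9.73, 12.9 and 11.0 FPKM in irradiated hippocampus, against 12.2, 11.4 and 12.9 FPKM in control hippocampus. In prefrontal cortex C4b stood at 5.51, 7.17 and 6.00 FPKM in irradiated mice, against 5.63, 5.69 and 6.08 FPKM in control mice. Treatment groups overlap within each region, and every hippocampal library lies above every prefrontal one. The log2 difference with irradiation was -0.12 ± 0.10 in hippocampus (limma, adjusted p = 0.632) and 0.08 ± 0.10 in prefrontal cortex.

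The region difference of C4b was 0.75 ± 0.12 in irradiated mice (limma, adjusted p = 0.00231) and 0.95 ± 0.08 in control mice (adjusted p = 2.19e-05). In FPKM, irradiated hippocampus held 11.2 ± 1.58 against 6.22 ± 0.852 in irradiated prefrontal cortex, and control hippocampus held 12.2 ± 0.746 against 5.80 ± 0.244 in control prefrontal cortex (SD, n = 3 each). The transcript of C4b is 95.9% identical to that of its neighbour C4a over 5378 bases, and C4a was listed at 0 to 0.146 FPKM. How the authors' counting shared fragments between the pair is not given, so the level of C4b is uncertain by that share.

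C3 is the central component, on which all routes of activation meet. It lies on the minus strand of chromosome 17 at 57203970 to 57228136. The sequence before its start (GRCm38.p6, chr17:57228137-57228386, minus strand) is shown because C3 had, of the 9 genes, the widest ratio between the regions. Capitals mark a match to TTGCNNAA, the core bound by C/EBP factors, which begins 45 bases before the start.

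C3: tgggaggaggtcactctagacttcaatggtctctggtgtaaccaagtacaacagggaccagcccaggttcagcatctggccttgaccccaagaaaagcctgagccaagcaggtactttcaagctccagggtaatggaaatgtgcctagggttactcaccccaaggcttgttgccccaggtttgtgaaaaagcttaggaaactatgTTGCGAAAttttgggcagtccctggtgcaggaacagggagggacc

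On either strand, 9.56% of the 32851 promoter windows hold TTGCNNAA, and of the 6 complement windows that of C3 alone does. TTCNNNGAA, the core of sites for STAT factors, is in 7.02% of all windows and in 0 of the 6.

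C3 stood at 0.822, 0.882 and 0.938 FPKM in irradiated hippocampus, against 1.19, 0.990 and 1.02 FPKM in control hippocampus. In prefrontal cortex C3 stood at 0.283, 0.264 and 0.230 FPKM in irradiated mice, against 0.168, 0.180 and 0.118 FPKM in control mice. The 4 groups do not overlap: control hippocampus is highest, irradiated hippocampus next, irradiated prefrontal cortex below it and control prefrontal cortex lowest. With these levels and the estimated depth, C3 rests on about 77 to 90 fragments per irradiated hippocampal library, against 90 to 112 per control one. In prefrontal cortex it rests on about 21 to 27 fragments in irradiated libraries and 12 to 15 in control libraries. The ratio of mean FPKM, irradiated to control, was 0.825 in hippocampus and 1.66 in prefrontal cortex.

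C3 had a mean under 1 FPKM in every comparison, so it was tested only with no filter on low values. The log2 difference of C3 with irradiation was then -0.14 ± 0.07 in hippocampus (limma, unadjusted p = 0.0978, adjusted p = 0.598) and 0.12 ± 0.04 in prefrontal cortex (unadjusted p = 0.0196, adjusted p = 0.69). An unadjusted p under 0.05 was reached by 6.73% of all genes so tested in prefrontal cortex. Groups with all irradiated libraries lower made up 7.01% of the 18984 genes so tested in hippocampus, and groups with all irradiated libraries higher made up 5.20% of 18910 genes in prefrontal cortex. The hippocampal minus the prefrontal effect was -0.26 ± 0.07, with an unadjusted p of 0.00385 and an adjusted p of 0.996 by limma. Of all genes so tested, 4.03% had an unadjusted p under 0.05 for this difference.

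Between the regions C3 differed by 0.58 ± 0.05 in irradiated mice (limma with no filter, adjusted p = 0.000649) and by 0.84 ± 0.06 in control mice (adjusted p = 0.000146). The pseudocount of 1 compresses these log2 differences at such low levels. In FPKM, irradiated hippocampus held 0.880 ± 0.0582 against 0.259 ± 0.0268 in irradiated prefrontal cortex, a ratio of 3.4. Control hippocampus held 1.07 ± 0.106 against 0.155 ± 0.0327 in control prefrontal cortex, a ratio of 6.86 (SD, n = 3 each).

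C3ar1 encodes the receptor for the fragment C3a, carried by microglia and other myeloid cells, and lies at 122847138 to 122856161 on the minus strand of chromosome 6. It stood at 0.507, 0.696 and 0.758 FPKM in irradiated hippocampus, against 0.543, 0.621 and 0.701 FPKM in control hippocampus. In prefrontal cortex C3ar1 stood at 0.547, 0.750 and 0.554 FPKM in irradiated mice, against 0.534, 0.598 and 0.738 FPKM in control mice. All 4 groups overlap. Tested with no filter, its log2 difference with irradiation was 0.03 ± 0.08 in hippocampus and -0.01 ± 0.08 in prefrontal cortex, and that between the regions was 0.03 in irradiated and 0.00 in control mice.

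C5ar1 encodes the receptor for the fragment C5a, which attracts and activates myeloid cells. The gene lies at 16246743 to 16259540 on the minus strand of chromosome 7. It stood at 0.455, 0.374 and 0.782 FPKM in irradiated hippocampus, against 0.245, 0.220 and 0.376 FPKM in control hippocampus. In prefrontal cortex C5ar1 stood at 0.241, 0.183 and 0.453 FPKM in irradiated mice, against 0.442, 0.392 and 0.258 FPKM in control mice. In hippocampus irradiated mouse 2 falls just below control mouse 3, so the groups overlap, and they overlap in prefrontal cortex as well. These levels rest on about 18 to 37 fragments in irradiated hippocampal libraries and 10 to 16 in control ones. The ratio of mean FPKM, irradiated to control, was 1.92 in hippocampus and 0.803 in prefrontal cortex. At such low levels the pseudocount of 1 compresses the log2 differences that follow.

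With no filter, the log2 difference of C5ar1 was 0.26 ± 0.10 in hippocampus (limma, unadjusted p = 0.045 beside 8.69% of all genes under 0.05, adjusted p = 0.569) and -0.08 in prefrontal cortex. For the difference of these effects it was 0.34 ± 0.15 (limma, unadjusted p = 0.0447 beside 4.03% of all genes under 0.05). That difference did not pass, with an adjusted p of at least 0.863 by limma over all alternatives. The region difference in irradiated mice was 0.25, which did not pass in the fit without pairing. With the mouse as a block it passed, at an adjusted p of 0.0282, and over all alternatives that value ran from 0.0282 to 0.443. In control mice the region difference of C5ar1 was -0.09. Beside this, markers of blood leukocytes summed to 5.03, 15.2 and 3.29 FPKM in irradiated hippocampus 1, 2 and 3, against 0.387 to 2.39 FPKM in control hippocampus. Irradiated hippocampus 2 held the highest leukocyte sum and the lowest C5ar1 of its group. Irradiated hippocampus 3 held the lowest sum and the highest C5ar1. S100a8 (6.22 FPKM) and S100a9 (5.63 FPKM) made up most of the sum in irradiated hippocampus 2. Markers of border macrophages summed to 7.27 to 8.81 FPKM in irradiated hippocampus against 3.44 to 7.87 FPKM in control hippocampus. In prefrontal cortex the leukocyte sums were 18.2, 5.95 and 2.55 FPKM in irradiated mice 1, 2 and 3, and 1.31 to 4.12 FPKM in control mice. The part of these cells in the C5ar1 values was not tested.

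Serping1 encodes the C1 inhibitor, a secreted protein that inactivates the proteases bound to C1q, and lies at 84765387 to 84775444 on the minus strand of chromosome 2. It stood at 4.39, 5.47 and 4.80 FPKM in irradiated hippocampus, against 2.70, 2.89 and 4.80 FPKM in control hippocampus. Control mouse 3 lies within the irradiated group, and the other controls lie below it. In prefrontal cortex Serping1 stood at 1.67, 2.93 and 2.75 FPKM in irradiated mice, against 2.60, 3.08 and 2.67 FPKM in control mice, and these groups overlap. The log2 difference was 0.42 ± 0.17 in hippocampus (limma, unadjusted p = 0.0374, adjusted p = 0.475) and -0.15 ± 0.15 in prefrontal cortex. Leaving out 1 library at a time gave 0.31 to 0.63 in hippocampus, with 0.63 without control 3, and in prefrontal cortex it turned the sign to 0.02 without irradiated mouse 1.

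Between the regions Serping1 differed by 0.79 ± 0.15 in irradiated mice (limma, adjusted p = 0.00662), where hippocampus held 4.88 ± 0.546 FPKM against 2.45 ± 0.683 FPKM in prefrontal cortex. In control mice it differed by 0.21 ± 0.16 (adjusted p = 0.38), with 3.46 ± 1.16 FPKM in hippocampus against 2.78 ± 0.259 FPKM in prefrontal cortex (SD, n = 3 each). The test of the change itself, the hippocampal minus the prefrontal irradiation effect, gave 0.58 ± 0.25 with an unadjusted p of 0.0359 and an adjusted p of 1 by limma. A region difference particular to irradiated mice was therefore not shown.

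Serping1 is also known to be made by cells of vessels and meninges, whose markers differed beside it. Endothelial markers summed to 116.2 to 126.7 FPKM in irradiated hippocampus against 69.7 to 90.8 FPKM in control hippocampus, where 8 of 12 were higher at an unadjusted p under 0.05, beside 4.70% of all genes. Mural markers, those of pericytes and smooth muscle, summed to 30.5 to 43.2 FPKM against 21.8 to 31.2 FPKM. Control hippocampus 3, the highest in Serping1 of its group, was also the highest of its group in the endothelial, mural, fibroblast and border macrophage sums. Irradiated hippocampus 2, the highest of all in Serping1, was the highest of its group in the endothelial and mural sums. Its fibroblast and border macrophage sums were the lowest of its group. Igf2 (23.1 FPKM there, against 55.9 and 65.3 in mice 1 and 3) and Cbr2 (0.68 against 2.97 and 2.53) weighed heavily in these sums. Other markers of both lists were highest of the group in that library, such as Mrc1 and Slc6a13, and others lowest, such as Pf4 and Lum. In hippocampus 8 of 10 fibroblast markers were positive with irradiation (median 0.53) and 7 were higher at an unadjusted p under 0.05, with sums of 93.5 to 144.4 FPKM in irradiated and 110.5 to 119.3 FPKM in control mice. For the difference of the irradiation effects 9 of 10 were positive (median 0.79), 8 of them at an unadjusted p under 0.05 beside 3.27% of all genes. In prefrontal cortex fibroblast markers summed to 27.2 to 44.6 FPKM in irradiated mice against 43.4 to 52.5 FPKM in control mice, and irradiated mouse 1 had the lowest sum and the lowest Serping1. The part of these cells in the Serping1 values was not tested.

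Cd55 encodes decay accelerating factor, a membrane protein that breaks up the C3 convertases, and lies at 130439027 to 130462744 on the minus strand of chromosome 1. It stood at 2.62, 2.22 and 3.05 FPKM in irradiated hippocampus, against 3.23, 2.73 and 3.14 FPKM in control hippocampus. In prefrontal cortex Cd55 stood at 1.01, 1.07 and 1.20 FPKM in irradiated mice, against 0.969, 1.15 and 1.37 FPKM in control mice. Treatment groups overlap in each region, and every hippocampal library lies above every prefrontal one. The log2 difference with irradiation was -0.16 ± 0.11 in hippocampus (limma, adjusted p = 0.58) and -0.04 ± 0.11 in prefrontal cortex.

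The region difference of Cd55 was 0.79 ± 0.11 in irradiated mice (limma, adjusted p = 0.00147) and 0.90 ± 0.11 in control mice (adjusted p = 0.000238). The ratio of the mean FPKM was 2.4 in irradiated and 2.61 in control mice. An antisense gene overlaps Cd55, and whether counting used the strand is not given, so its fragments could be included. The related Cd55b shares 93.0% of bases with Cd55 over 1053 bases.

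Counted over the group, irradiation gave 0 calls among the 6 complement genes that passed the filter (C1qa, C1qb, C1qc, C4b, Serping1 and Cd55) in either region by limma. In hippocampus 0.00% of 12947 genes were called at all. At an unadjusted p under 0.05 there were 1 higher (Serping1) and 1 lower (C1qb) of these 6, beside 10.5% of all genes, 4.70% higher and 5.81% lower. The median log2 difference of the 6 was -0.12, with 5 negative, beside a median of -0.01 over all genes, of which 53.0% were negative. In prefrontal cortex 0.00786% of 12729 genes were called, 0 of the 6 had an unadjusted p under 0.05 beside 7.23% of all genes, and their median was -0.06 with 5 negative, beside 48.8% negative of all genes.

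For the difference of the irradiation effects, 0.00% of 12894 genes were called and 3.27% had an unadjusted p under 0.05, among them Serping1 of the 6. With the regions of each mouse averaged, 0.00776% of 12894 genes were called and 10.1% had an unadjusted p under 0.05, while none of the 6 had by limma. The averaged log2 differences ran from -0.16 for C1qb (unadjusted p = 0.0727, adjusted p = 0.514) to 0.14 for Serping1.

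**Figure D3:**
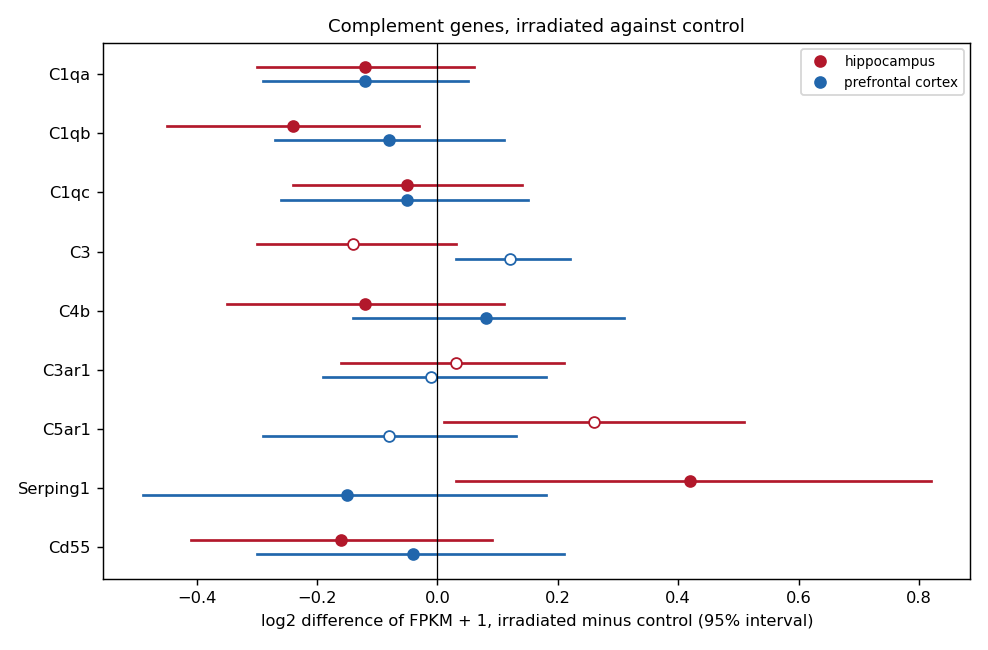
Log2 difference of FPKM + 1, irradiated minus control, with its 95% interval, for the 9 complement genes in hippocampus (red) and prefrontal cortex (blue). Open points mark genes with a mean under 1 FPKM, tested with no filter on low values. None passed the adjusted test, with values on this scale from -0.24 for C1qb to 0.42 for Serping1, both in hippocampus. The pseudocount of 1 compresses the open points. The hippocampal ratio of mean FPKM was 1.92 for C5ar1 and 1.41 for Serping1, and 0.825 for C3 and 0.848 for C1qb.

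Between the regions, 3 of the 6 complement genes tested were called in irradiated mice (C4b, Serping1 and Cd55) and 2 in control mice (C4b and Cd55), all higher in hippocampus. Among all genes, 29.2% were called in irradiated mice, 13.9% as higher and 15.3% as lower. In control mice 30.3% were called, 15.7% as higher and 14.6% as lower. With no filter, C3 was called as higher as well, beside 9.77% of 19049 genes in irradiated and 11.9% of 19005 genes in control mice. The C1q chains were not called. In irradiated mice their log2 differences between the regions were 0.12 for C1qa, -0.05 for C1qb and 0.09 for C1qc. In control mice they were 0.12 for C1qa, 0.12 for C1qb and 0.09 for C1qc, and the interval for C1qa there ran from -0.03 to 0.27.

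Markers of several cell types differed between the regions beside these genes. Of 16 microglia markers, 16 were positive in control mice (median 0.14, 0 called) and 10 in irradiated mice (median 0.01, 1 called). In both treatments 7 of 7 oligodendrocyte and 7 of 7 ependyma markers were called higher in hippocampus, beside 13.9% to 15.7% of all genes. Of 12 endothelial markers, 11 were negative in both treatments, with 7 called lower in control mice (beside 14.6% of all genes) and 0 in irradiated mice. Astrocyte markers summed to 1380 to 1533 FPKM in hippocampus and 1010 to 1175 FPKM in prefrontal cortex over both treatments. Of 10 astrocyte markers, 7 were called higher in hippocampus in control mice and 6 in irradiated mice, beside 15.7% and 13.9% of all genes. Of 10 choroid plexus markers, 10 were called higher in control mice and 7 in irradiated mice. The fibroblast sums were 93.5 to 144.4 FPKM in hippocampus and 27.2 to 52.5 FPKM in prefrontal cortex, and Igf2 and Dcn made up most of them in hippocampus. Of 10 fibroblast markers tested between the regions, 10 were positive in irradiated mice (median 0.70, 8 called by limma), against 3 positive and 7 negative in control mice (median -0.28, 3 called as higher). Irradiated hippocampus 2, with little choroid plexus, held 0.882 FPKM of C3, 12.9 FPKM of C4b, 5.47 FPKM of Serping1 and 2.22 FPKM of Cd55, each above every prefrontal library. In the region differences, the part of these cell types, of choroid plexus and of striatal tissue was not tested.

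**Figure D4:**
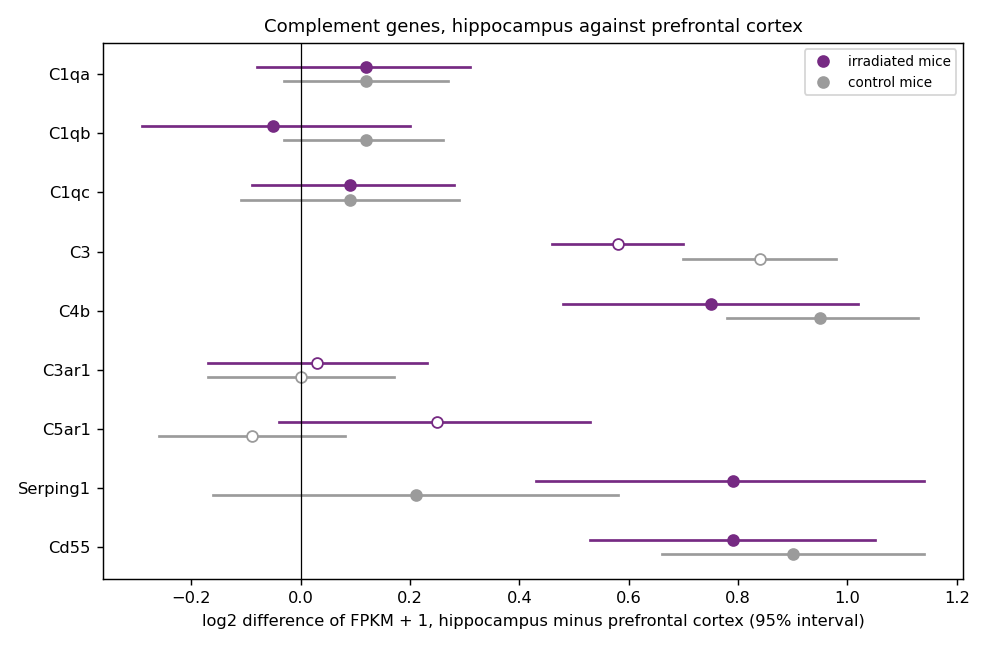
Log2 difference of FPKM + 1, hippocampus minus prefrontal cortex, with its 95% interval, for the 9 complement genes in irradiated mice (purple) and control mice (grey). Open points mark genes with a mean under 1 FPKM, tested with no filter on low values. C3, C4b and Cd55 lie between 0.58 and 0.95 in both treatments, and Serping1 at 0.79 in irradiated and 0.21 in control mice. This change of Serping1 between the treatments did not pass the adjusted test.

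Of 51 other genes of the cascade, its receptors and its regulators, 15 passed the filter in hippocampus. They comprise 2 components, 2 receptors and 11 regulators. By limma 0 of the 15 passed the adjusted test with irradiation in either region. In hippocampus 10 were positive beside 47.0% of all genes, with a median of 0.13, and 5 were higher at an unadjusted p under 0.05 beside 4.70% of all genes. All 5 were regulators, of which 9 of 11 were positive. In prefrontal cortex 12 of the 15 were positive beside 51.2% of all genes, with a median of 0.09, and 0 had an unadjusted p under 0.05.

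Vtn encodes vitronectin, which keeps the terminal complex out of membranes and in brain is made by pericytes. It stood at 39.2, 45.8 and 42.3 FPKM in irradiated hippocampus, against 23.5, 24.4 and 31.5 FPKM in control hippocampus. The groups do not overlap, as is so for 7.41% of all genes in that direction. The log2 difference of Vtn was 0.67 ± 0.11 in hippocampus (limma, unadjusted p = 0.000323, adjusted p = 0.322), 0.02 in prefrontal cortex, and 0.65 for the difference of these effects (unadjusted p = 0.00179, adjusted p = 1). Hippocampal control 3 had the highest Vtn and Serping1 of its group.

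The others at an unadjusted p under 0.05 in hippocampus were Csmd1 (0.35), Csmd3 (0.24), Susd4 (0.14) and Sez6l2 (0.13). They are membrane proteins of neurons with the same kind of domain as complement regulators. The sizes depended on the processing. Over the alternatives other than leaving out a library, the hippocampal value ran from 0.20 to 0.47 for Csmd1 and from 0.09 to 0.36 for Csmd3. For Susd4 it ran from 0.14 to 0.22 and for Sez6l2 from 0.12 to 0.22. In prefrontal cortex Csmd1 differed by 0.17, Csmd3 by 0.14, Susd4 by 0.13 and Sez6l2 by 0.14. Averaged over the regions of a mouse, 5 of the 11 regulators were higher at an unadjusted p under 0.05, beside 4.04% of all genes, Vtn at 0.35, Csmd1 at 0.26, Sez6l2 at 0.14, and Susd4 and Sez6l at 0.13 each. Of the 9 genes and the 15 others tested, the highest level was that of Clu, which encodes clusterin, a secreted inhibitor of the terminal complex made by astrocytes. Clu stood at 528 to 664 FPKM in irradiated hippocampus, against 588 to 696 FPKM in control hippocampus, a log2 difference of -0.13 that did not pass.

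**Figure D5:**
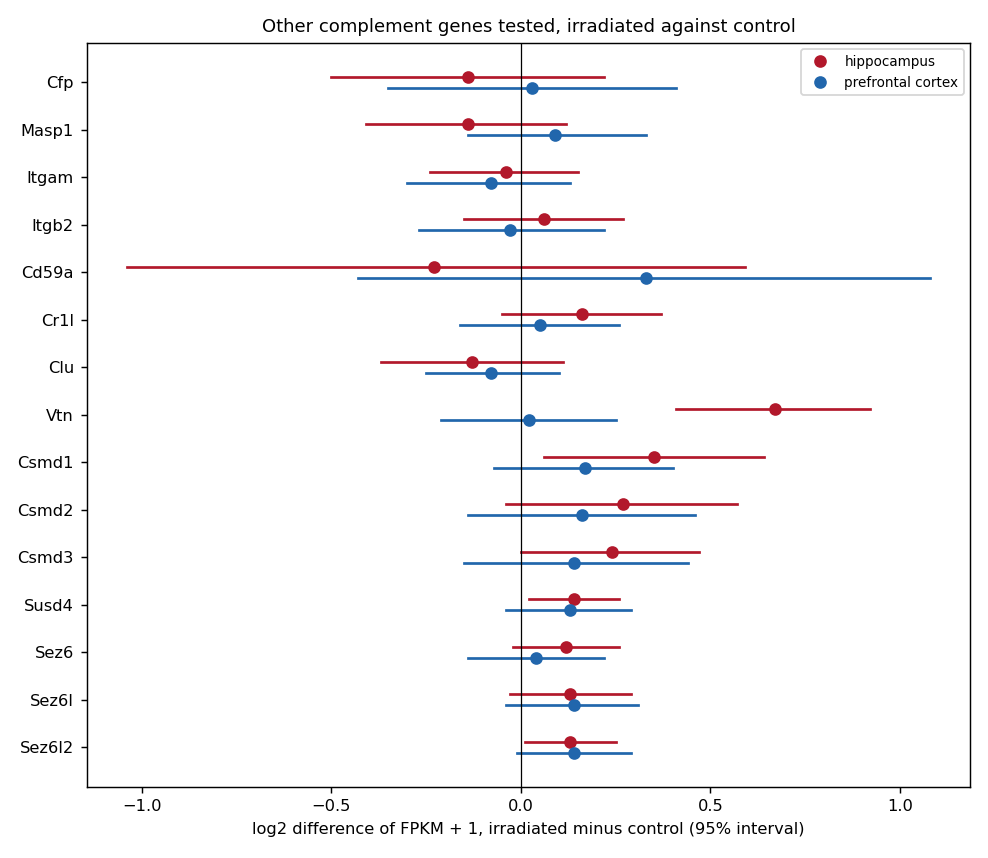
Log2 difference of FPKM + 1, irradiated minus control, with its 95% interval, for the 15 other complement genes tested, in hippocampus (red) and prefrontal cortex (blue). None passed the adjusted test. Vtn lies highest in hippocampus (0.67) and near 0 in prefrontal cortex (0.02).

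Between the regions, the other regulators went in both directions. Clu was higher in hippocampus, by 0.61 in irradiated and 0.66 in control mice (limma, adjusted p = 0.00243 and 0.000238), and so was Sez6l, by 0.45 in both. Sez6 was lower in hippocampus, by -0.27 in irradiated and -0.36 in control mice (adjusted p = 0.0323 and 0.00216). In irradiated mice 2 of the 11 regulators were called higher in hippocampus and 1 lower, beside 13.9% and 15.3% of all genes. In control mice 2 were called higher and 4 lower, beside 15.7% and 14.6% of all genes. The lower ones in control mice were Vtn (-0.39), Csmd1 (-0.41), Csmd2 (-0.48) and Sez6. The call of Vtn in control mice was lost with no filter on low values, at an adjusted p of 0.0627 by limma, and without hippocampal mouse 1 or 2 or prefrontal mouse 1 or 3, at 0.0591 to 0.116. That of Sez6 in irradiated mice was lost with equal totals, at an adjusted p of 0.0625, and without hippocampal mouse 1 or 3 or prefrontal mouse 1 or 2, at 0.0537 to 0.101.

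Likeness was measured over genes other than the 9, as the Pearson r of deviations from the 4 group means. Over the 12 libraries, which share 6 mice and 1 batch, Rsph9 came nearest to C1qa (r = 0.99), Pes1 to C1qb (0.93), Tra2b to C1qc (0.96), Atp6v1g2 to C4b (0.95), Klhl29 to Serping1 (0.97) and Brcc3 to Cd55 (0.95). Each is the highest of 12214 candidate genes. By the same measure C1qa and C1qb had an r of 0.68, and C1qa and C1qc of 0.52.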

How the data were processed

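Each of the 12 libraries came as a table of gene symbol and 1 value per gene. The values deposited by the authors name no unit and were taken as FPKM from the values: they are not whole numbers, sum to 381417 to 435534 per library, and multiplied by transcript length in kilobases sum to 1.2 to 1.25 M (mega). The submitters' processing notes name TopHat as the aligner and mm10 as the build. The library kit marks strand, per the labels' protocols, while the counting tool, its use of strand and the annotation are not stated in the sources used here. Since FPKM scale with the library's total, a few abundant genes can move the others. Depth was estimated from the smallest step between low values, gives no counting error per gene, and needs single transcripts of at least 2000 bases.

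From these values, limma 3.58.1 (R 4.3.3, with the intensity trend) was fitted to log2(FPKM + 1) over genes whose mean reached 1 FPKM in the libraries compared, all tests two-sided, with Benjamini-Hochberg adjustment over all genes tested. C3, C3ar1 and C5ar1 stayed below that mean in every comparison and were tested with no filter. The 6 comparisons were irradiated against control in each region, the difference of these effects, the same over the mean of both regions per mouse, and hippocampus against prefrontal cortex in irradiated and in control mice. The script was tested on simulated data. Exact permutation tests over 20 splits of 3 against 3 cannot go below 0.1. All libraries carry 1 batch label, and the mice of a group are separate animals.

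The titles number the mice, so the 2 regions of a number come from 1 mouse. Their deviations from the group means correlated at 0.17, 0.26 and 0.30 in irradiated mice and at 0.29, -0.01 and 0.05 in control mice. Fits with a replicate block were run beside the fits without it. The block was the mouse for the region comparisons and for the difference of effects. For irradiated against control, in a region or over the mean of both, it was the replicate number, which pairs different mice. Across treatments a number marks no shared animal.

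The genes and lists were chosen with earlier results of these data known. The text names the 9 genes, of 51 other complement genes those with an unadjusted p under 0.05 in an irradiation comparison and up to 6 with the highest mean, and for likeness the gene with the highest Pearson r. Not every gene of the cascade is reported here. A few further list members and marker genes are named where a count of 5 or fewer or a marker sum refers to them. Positions and overlaps are from GENCODE M21, promoters from RefSeq, and transcript identity from blastn 2.17.0. The alternatives were a pseudocount of 0.1, no filter on low values, equal library totals, robust moderation, each library left out, 1 fit over all 12 libraries, the replicate block and removal of a trend with transcript length. Per-sample columns left unused numbered 0.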

Additional observations from a re-analysis of the deposited data

Results flagged for a closer look

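For C3, the irradiation effect in hippocampus minus that in prefrontal cortex was -0.26 on the log2(FPKM + 1) scale, since every irradiated hippocampal library lay below every control one while every irradiated prefrontal library lay above every control one. With no filter on low values, limma gave this difference an unadjusted p of 0.00385 and an adjusted p of 0.996. The two-sided exact permutation test gave 0.1, the smallest value that 3 mice against 3 allow. C3 was picked for these separated groups, which fix the exact value at 0.1, so neither p tests the pattern independently. C3 stood below 1.2 FPKM in all 12 libraries, and the prefrontal values rest on about 12 to 27 estimated fragments each. Markers of the choroid plexus, which is known to make C3, summed to 3736, 126.5 and 5377 FPKM in irradiated hippocampus 1, 2 and 3. In control hippocampus these markers summed to 4276 to 6651 FPKM. The same irradiated libraries held 0.822, 0.882 and 0.938 FPKM of C3. The part of the choroid plexus was not tested.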

How the results depend on the processing

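Over 387 alternatives for the irradiation differences of the 9 complement genes, 0 passed the adjusted test by limma, with 0.178 as the smallest adjusted p, and the higher levels of C3, C4b and Cd55 in hippocampus passed in 70 of 70. The 387 include fits with a block by replicate number, which pairs different mice across treatments. The number of complement genes called stayed within 1.5 times in 82 of 82. The number of all genes called moved in hippocampus to 5 with equal totals, 3 with robust moderation and 1 with 1 fit over all 12 libraries, against 0, and in prefrontal cortex to 2 with no filter and 0 with 1 fit, against 1. For the difference of effects it was 1 with no filter, against 0. For the mean of both regions it was 0 with no filter, 0 with the length trend removed and 2 with the block by replicate number, against 1. Leaving out 1 library gave 0 to 1 genes in hippocampus, 1 to 4 in prefrontal cortex, 0 to 2 for the difference and, by mouse, 1 to 3 for the mean. The block of the same mouse brought C5ar1 (adjusted p = 0.0282), Vtn (0.0143) and Csmd1 (0.0389) past the threshold between the regions of irradiated mice, and changed no other call among the genes reported. The following signs turned. C1qc became 0.04 in hippocampus and 0.02 in prefrontal cortex with equal totals. Removing the trend with transcript length gave 0.04 and 0.03, and also gave 0.02 for C1qb in prefrontal cortex. The difference of effects of C1qa was 0.01 with equal totals and 0.00 after removing the trend with transcript length, C3ar1 in prefrontal cortex was 0.04 with equal totals, and its region difference in control mice was 0.00 with a pseudocount of 0.1. Leaving out 1 library, C1qc ran from -0.11 to 0.01 in hippocampus. In prefrontal cortex C1qc ran from -0.13 to 0.01, C4b from -0.01 to 0.15, Serping1 from -0.26 to 0.02, Cd55 from -0.11 to 0.02, Vtn from -0.05 to 0.12 and C3ar1 from -0.06 to 0.04. C3ar1 ran from -0.02 to 0.09 in hippocampus. For the difference of effects C1qa ran from -0.08 to 0.05, C1qc from -0.06 to 0.08 and C3ar1 from -0.02 to 0.10. Between the regions, C1qb in irradiated mice ran from -0.15 to 0.02, and C3ar1 from -0.01 to 0.10 in irradiated and from -0.04 to 0.05 in control mice. The cause of these moves was not tested. Groups of 3, the unknown time after exposure and the low levels of C3, C3ar1 and C5ar1 limit what could be detected.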

Other observations

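C2, the protease that C1 cleaves together with C4, had a mean under 1 FPKM and was tested only with no filter on low values. It stood at 0.457, 1.05 and 0.892 FPKM in irradiated hippocampus, against 0.166, 0.369 and 0.373 FPKM in control hippocampus. In prefrontal cortex C2 stood at 0.122, 0.426 and 0.592 FPKM in irradiated mice, against 0.534, 0.800 and 0.761 FPKM in control mice. The log2 difference of C2 was 0.45 ± 0.14 in hippocampus (limma, unadjusted p = 0.013 beside 8.69% of all genes under 0.05, adjusted p = 0.568), -0.31 ± 0.13 in prefrontal cortex (adjusted p = 0.742) and 0.77 ± 0.21 for the difference of these effects (unadjusted p = 0.00388 beside 4.03% of all genes under 0.05, adjusted p = 0.996). C2 overlaps other annotated genes, so its fragments are uncertain, and it is named here after its values were seen. Hc, which encodes C5, was at most 0.0950 FPKM in any library, and Cfd, the protease that starts the alternative pathway, was listed at 0 in most.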
